A study of Mus musculus with 4 samples.

Results

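The genes described are the 8 that encode the mouse enzymes that write, copy and oxidise 5-methylcytosine, together with their closest cofactors: Dnmt1 and Uhrf1 for maintenance, Dnmt3a, Dnmt3b and Dnmt3l for de novo methylation, and Tet1, Tet2 and Tet3 for oxidation. They were chosen by name, as 8 of the 19321 genes measured, and all 8 have a row in the table. Their levels were followed in germ cells and somatic cells of the fetal ovary, over the days in which mouse female germ cells leave mitosis and enter meiosis.

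DNA methylation at CG dinucleotides is copied at each replication by DNMT1, which UHRF1 guides to newly replicated, half-methylated DNA. DNMT3A and DNMT3B place methyl groups on unmethylated sites, and DNMT3L has no catalytic activity of its own but stimulates both. The TET enzymes oxidise 5-methylcytosine, which leads to its loss by dilution at replication or by base excision. Primordial germ cells are known for erasing most of their DNA methylation around the time they reach the gonad, and female germ cells regain it only after birth, in growing oocytes.

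The study sampled fetal gonads, labelled XX, from C57BL/6 mice once a day between E11.5 and E14.5, with no treatment, transgene or mutation named in the labels. Dissociated cells were profiled with the 10x Genomics 3′ kit, version 2, in 1 library per stage, so the stage and the library cannot be told apart and no difference between stages was tested. How many embryos went into a library is not given in the sources used here. Cells with at least 3 of the germ cell genes Dazl, Ddx4, Dnd1, Mael, Dppa5a and Mov10l1 above 0 were taken as germ cells (243, 628, 750 and 2371 in stage order), and cells with at most 1 as somatic cells (4334, 3897, 3816 and 2024). In these bulk-like sums over a class, fewer cells with a transcript and less RNA per cell cannot be told apart.

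Germ cells carried 2188 to 3336 CPM (UMIs of a gene per 1000000 UMIs of the class) of the 6 germ cell markers and somatic cells 19.11 to 27.4 CPM, with all 6 markers above 0 in both. The 12 markers of supporting and interstitial cells stood in germ cells at 4.36%, 3.90%, 4.93% and 8.10% of their somatic level in stage order. The median germ cell held 31169, 27510.5, 24751.5 and 15471 UMIs, and the median somatic cell 13770, 12091, 10423.5 and 10107. At E14.5, 18.1% of germ cells and 21.9% of somatic cells had a UMI of Ddx3y, Eif2s3y, Kdm5d or Uty, which lie on the Y chromosome, against 0% in the other 3 libraries, although the labels call all 4 libraries XX. All 444 such somatic cells also had a Xist UMI, as did 99.8% of all somatic cells at E14.5. The calls between germ and somatic cells, between E11.5 and E14.5 and between the E14.5 terciles are therefore also given without the cells that carry a Y-linked UMI. Of all barcode sequences, 175 occurred in more than 1 library.

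The 8 genes lie on 8 RefSeq loci of GRCm38.p6, the build that corresponds to the mm10 named in the submitters' processing notes. Dnmt1 spans chr9:20907206-20959888 on the minus strand and Uhrf1 chr17:56303337-56323486 on the plus strand. Dnmt3a spans chr12:3801559-3914443, Dnmt3b chr2:153649411-153687730 and Dnmt3l chr10:78042287-78063622, all on the plus strand. Tet1 spans chr10:62804570-62887469, Tet2 chr3:133463677-133545136 and Tet3 chr6:83362373-83457208, all on the minus strand. Transcripts of the other strand with rows of their own overlap Dnmt3a (Dnmt3aos), Dnmt3b (Dnmt3bos), Dnmt3l (Aire) and Tet2 (Gm42567). Whether the counting used strand is not given in the sources used here.

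The promoters of the maintenance pair are shown because these genes moved with S phase genes in somatic cells, and that of Tet1 because it was the other member higher in germ cells beside Dnmt1. Each is the 250 bases upstream of a RefSeq start, written 5′ to 3′ on the gene's strand, with capitals marking an E2F-type match. E2F factors are known to drive S phase genes. The motif was searched as TTTCCCGC, TTTCGCGC, TTTGCCGC or TTTGGCGC on both strands, and no overlap with another motif was examined.
Dnmt1, chr9:20952624-20952873, minus strand: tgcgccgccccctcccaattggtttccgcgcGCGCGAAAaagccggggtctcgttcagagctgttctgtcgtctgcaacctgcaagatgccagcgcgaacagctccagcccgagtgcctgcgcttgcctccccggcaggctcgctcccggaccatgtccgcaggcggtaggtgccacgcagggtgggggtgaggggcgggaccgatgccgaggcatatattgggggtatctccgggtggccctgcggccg
Uhrf1, chr17:56304063-56304312, plus strand: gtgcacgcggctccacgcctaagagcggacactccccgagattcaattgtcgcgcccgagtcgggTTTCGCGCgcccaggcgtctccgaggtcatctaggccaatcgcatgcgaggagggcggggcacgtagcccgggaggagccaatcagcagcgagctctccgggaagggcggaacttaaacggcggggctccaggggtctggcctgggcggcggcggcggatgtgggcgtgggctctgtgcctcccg
Tet1, chr10:62887325-62887574, minus strand: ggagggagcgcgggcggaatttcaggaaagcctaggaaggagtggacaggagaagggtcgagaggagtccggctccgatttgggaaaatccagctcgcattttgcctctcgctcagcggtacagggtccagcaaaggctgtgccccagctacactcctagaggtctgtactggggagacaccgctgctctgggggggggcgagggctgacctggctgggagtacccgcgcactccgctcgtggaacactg
The match began 219 bases upstream of the start in Dnmt1 and 185 bases upstream in Uhrf1. Among the 15 windows of the 8 genes, only these 2 held the motif, each in 1 of the gene's alternative starts, while 2.16% of 27025 genes and 1.86% of 32851 windows held it. A match describes letters and not a bound site. Of Dnmt1 and Uhrf1 only the windows with a match are printed. They held 26 and 30 CG dinucleotides, and the Tet1 window 15, against a median of 6 over all windows. The other Dnmt1 windows held 2 and 7, and the other Uhrf1 window 10. The motif itself holds a CG, so windows with a match are not a like sample of all windows.

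Germ cells and somatic cells differed in the levels of these enzymes. Dnmt1 and Tet1 were higher in germ cells, and Dnmt3a, Dnmt3b, Uhrf1, Tet2 and Tet3 were lower, while Dnmt3l was all but absent from both. The 2 classes of each library were compared over the 4 libraries with limma on log2(CPM + 1), with library as a block, and the stages stood in as replicates, so the error holds stage differences. Of the 7 genes tested, 7 passed an adjusted p of 0.05 (Benjamini-Hochberg), 2 of them higher in germ cells and 5 lower. This share stands beside 65.7% of the 11848 genes tested, 24% higher and 41.7% lower in germ cells, with a median log2 difference of -0.28, so passing the test was common. Scaled by the median of ratios, 4056 genes were higher and 3968 lower. Leaving out the cells with a Y-linked UMI also gave 7 of 7. Below, no overlap between the germ and somatic values of a gene is given as a description only. Its share over all genes was not counted. In the single library of E13.5 the interval of the Tet2 ratio included 0 (-0.22, -0.45 to 0.01).

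**Figure D1:**
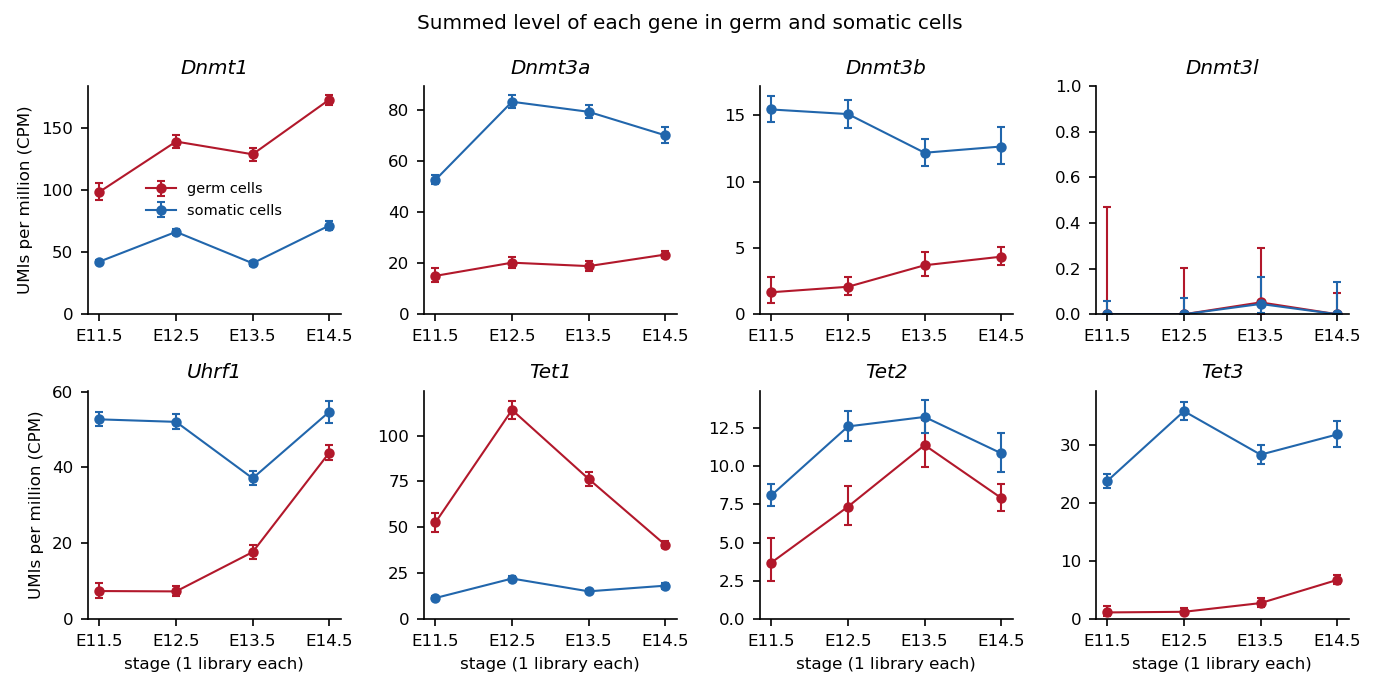
Level of each of the 8 genes in CPM (y axis, starting at 0) at each stage (x axis), in germ cells (red) and somatic cells (blue), with exact Poisson 95% intervals. Dnmt1 and Tet1 lie above the somatic line at all 4 stages, and Uhrf1 climbs in germ cells from 7.40 to 43.9 CPM.

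Dnmt1, the maintenance methyltransferase, stood at 98.6, 139, 129 and 173 CPM in germ cells in stage order. In somatic cells the levels were 42.4, 66.3, 41.0 and 71.4 CPM. Every germ cell value lay above every somatic value. The difference was 1.29 ± 0.14 (log2 ± SE, 4 libraries, limma adjusted p = 0.000251), or 2.44-fold on the log2(CPM + 1) scale, and germ cells were higher in 4 of 4 libraries.

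Uhrf1, the guide of DNMT1 to replicated DNA, was at 7.40, 7.30, 17.7 and 43.9 CPM in germ cells. Somatic cells held 52.7, 52.0, 37.1 and 54.7 CPM. The pair was thus split at E11.5, where germ cells had 2.33 times the somatic Dnmt1 level but 14.04% of the somatic Uhrf1 level. The germ level came to 14.04%, 47.6% and 80.3% of the somatic level at the later stages, beside 3.90% to 8.10% for the supporting and interstitial markers. At E11.5 the mesothelial markers stood at 19.8 CPM in germ and 147 CPM in somatic cells, and the immune markers at 9.05 and 68.8 CPM. The endothelial markers stood at 75.9 and 172 CPM there. The part of somatic RNA in the Uhrf1 values was not tested. The mean difference was -1.67 ± 0.42 (log2 ± SE, limma adjusted p = 0.0117). Germ cells were lower in 4 of 4 libraries, although the E14.5 germ value lay above the E13.5 somatic value.

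**Figure D2:**
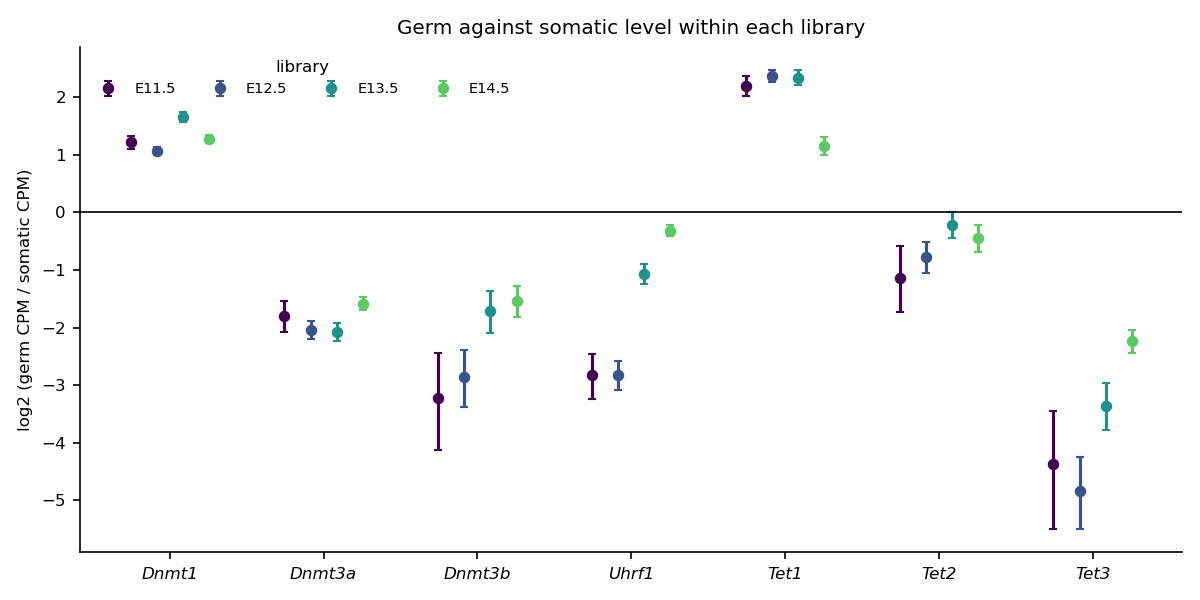
Log2 ratio of germ to somatic CPM (y axis) within each of the 4 libraries (colours) for the 7 genes tested (x axis), with exact 95% intervals that cover counting error only. Dnmt1 and Tet1 lie above 0 in all 4 libraries, and the Uhrf1 log2 ratio is -2.83 at E11.5 and -0.32 at E14.5.

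Among the de novo enzymes, Dnmt3a was at 15.0, 20.2, 18.9 and 23.4 CPM in germ cells and at 52.7, 83.3, 79.3 and 70.1 CPM in somatic cells. The groups did not overlap, and the difference was -1.82 ± 0.14 (log2 ± SE, limma adjusted p = 6.97e-05), with germ cells lower in 4 of 4 libraries. Dnmt3b was at 1.66, 2.07, 3.69 and 4.34 CPM in germ cells, from 13, 38, 71 and 173 UMIs. Its somatic levels were 15.4, 15.1, 12.2 and 12.6 CPM, again with no overlap. On the log2(CPM + 1) scale the difference was -1.96 ± 0.26 (limma adjusted p = 0.000695). Without the added 1, the log2 ratios of CPM were -3.22, -2.86, -1.72 and -1.54 in stage order. Germ cells held 10.7%, 13.7%, 30.3% and 34.3% of the somatic Dnmt3b level in stage order, beside 4.36%, 3.90%, 4.93% and 8.10% for the supporting and interstitial markers, whose part in these values was not tested.

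Dnmt3l, the catalytically inactive stimulator, had 0, 0, 1 and 0 UMIs in germ cells and 0, 0, 2 and 0 in somatic cells. In germ cells a count of 0 allows, by a limit of 3 UMIs of the class total, up to 0.383 CPM at E11.5, 0.163 CPM at E12.5 and 0.0752 CPM at E14.5. It failed the minimum mean of 2 CPM and no fold is given.

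Of the oxidising enzymes, Tet1 was at 52.7, 114, 76.4 and 40.4 CPM in germ cells, highest at E12.5 and lowest at E14.5. Somatic cells held 11.47, 22.1, 15.1 and 18.2 CPM, below every germ value. The difference was 1.95 ± 0.23 (log2 ± SE, limma adjusted p = 0.000378), or 3.86-fold, and germ cells were higher in 4 of 4 libraries. Within libraries the ratio was 4.59, 5.16 and 5.05 at the first 3 stages and 2.22 at E14.5.

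Tet3 went the other way. It was at 1.15, 1.25, 2.75 and 6.74 CPM in germ cells, from 9, 23, 53 and 269 UMIs, and at 23.8, 35.8, 28.3 and 31.8 CPM in somatic cells. On the log2(CPM + 1) scale the difference was -3.15 ± 0.31 (log2 ± SE, limma adjusted p = 0.000198), lower in 4 of 4 libraries and without overlap. Without the added 1, the log2 ratios of CPM were -4.37, -4.84, -3.36 and -2.24 in stage order. The germ level was 4.82% and 3.50% of the somatic level at E11.5 and E12.5, beside 4.36% and 3.90% for the supporting and interstitial markers. The Tet3 share thus lay close to the marker share at these stages, and its part in the Tet3 values was not tested. At E13.5 and E14.5 it came to 9.73% and 21.2%, beside 4.93% and 8.10% for the markers.

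Tet2 differed least. Its germ levels were 3.70, 7.36, 11.4 and 7.92 CPM and its somatic levels 8.10, 12.6, 13.2 and 10.8 CPM, and the 2 ranges overlapped. The difference was -0.57 ± 0.18 (log2 ± SE, limma adjusted p = 0.0288), with germ cells lower in 4 of 4 libraries. The call was lost without the E11.5, E12.5 or E13.5 library (limma adjusted p = 0.0963, 0.123 and 0.0519), without the library block (0.113) and with median-of-ratios scaling (-0.29, adjusted p = 0.143).

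From E11.5 to E14.5, Uhrf1 and Tet3 increased most in germ cells among the 7 members tested, by ratios of 5.93 and 5.88, while no member changed by 2-fold in somatic cells. A change between stages was called where a gene had at least 50 UMIs over both libraries, a ratio of at least 2 and an exact 95% interval that left out 1; such an interval covers counting error only and does not speak to differences between libraries. By this rule 4 of 7 members rose in germ cells and 0 fell. The background was 39.1% of 12372 genes (31% higher, 8.03% lower), with a median log2 change of 0.45, so the upward direction was that of most called genes. With median-of-ratios scaling the median was 0.07, the split of all genes became 2708 higher and 1764 lower, and 3 members were called, with 2.18 for Uhrf1, 2.17 for Tet3, 1.00 for Dnmt3b and 0.71 for Tet2, which lost its call. Without cells with a Y-linked UMI 4 members were called. In somatic cells 0 of 7 members were called, also without those cells, beside 13.6% of 13834 genes.

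Uhrf1 rose by 2.57 on the log2 scale in germ cells (95% interval 2.19 to 2.97), a ratio of 5.93. It was level between E11.5 and E12.5 (-0.02, -0.47 to 0.45). The E13.5 step was a rise of 1.28 (0.98 to 1.57) and the E14.5 step one of 1.31 (1.14 to 1.48), where the ratio rule called 8.28% and 17.6% of genes. In somatic cells Uhrf1 changed by 0.05 (-0.04 to 0.14) over all stages. Without cells with a Y-linked UMI the germ change was 2.57, and without germ cells that held 3 or more markers of a somatic class it was 2.53. Admitting cells with at least 2 germ cell markers gave 1.77.

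Tet3 rose by 2.56 (1.61 to 3.70) in germ cells, a ratio of 5.88, with called steps of 1.14 into E13.5 and 1.29 into E14.5. With called doublets kept these steps were 0.42 and 0.94, both short of 2-fold, and with median-of-ratios scaling the first was just short of 2-fold. Dnmt3b rose by 1.39 (0.58 to 2.33) and Tet2 by 1.10 (0.55 to 1.70). The first step of Tet3 had only 32 UMIs in both libraries together, below the minimum. Where cells with at least 2 markers were admitted as germ cells, the changes were 0.96 for Tet3, 0.36 for Dnmt3b and 0.96 for Tet2, and only Uhrf1 was still called. Where at least 5 markers were asked for, they were 2.87, 2.36 and 1.32. The level of supporting and interstitial markers in germ cells went from 36.1 to 85.9 CPM over the same stages, and its part in the change of Tet3 and Dnmt3b was not tested. Without the germ cells that held 3 or more somatic markers the changes were 2.53 for Tet3 and 1.25 for Dnmt3b. Without cells with a Y-linked UMI they were 2.51 for Tet3, 1.45 for Dnmt3b and 1.11 for Tet2.

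Tet1 peaked at E12.5. It rose 2.16-fold from E11.5 to E12.5 (log2 1.11, 0.96 to 1.27), the only member called in that step, where 4.45% of 10200 genes were called. It then moved by -0.58 (-0.67 to -0.48) and by -0.92 (-1.02 to -0.81), neither of which reached 2-fold (the latter was -1.10, past 2-fold, with median-of-ratios scaling), and ended -0.38 (-0.54 to -0.22) from where it began, or -0.77 with that scaling. The E12.5 rise was not limited to germ cells, since somatic Tet1 moved by 0.94 (0.81 to 1.08) and the difference between the classes was 0.17 (-0.03 to 0.37). The E13.5 step was also shared, at -0.58 in germ cells and -0.55 in somatic cells. The step to E14.5 was not, with -0.92 in germ cells and 0.27 (0.09 to 0.44) in somatic cells, a difference of -1.18 (-1.38 to -0.99).

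Dnmt1 moved by 0.81 (0.70 to 0.92) and Dnmt3a by 0.64 (0.36 to 0.93) in germ cells over the 4 stages, both short of 2-fold. Somatic Dnmt1 moved by 0.75 (0.67 to 0.84), and the difference between the classes was 0.06 (-0.08 to 0.19). These values depended on the scaling: by the median of ratios Dnmt1 moved by 0.43 in germ cells and 0.70 in somatic cells, and germ cell Dnmt3a by 0.25. At each step Dnmt1 moved in the same direction in both classes, with somatic steps of 0.65, -0.69 and 0.80 and germ steps of 0.50, -0.11 and 0.42. Steps in somatic cells called 6.77%, 4.27% and 6.2% of all genes and 0 members.

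Among 4 somatic classes Dnmt1 and Uhrf1 were lowest in supporting cells, and Dnmt3b and Tet3 were highest in endothelial cells, in 4 of 4 libraries. Somatic cells were assigned to a class by the most of 6 markers each, with at least 3 above 0, and the classes are named for those markers only. In stage order 939, 721, 710 and 535 somatic cells stayed unassigned, and their levels are not part of the class comparison. Supporting cells, the precursors of granulosa cells, held 24.8, 44.3, 24.6 and 38.1 CPM of Dnmt1 and 21.3, 29.5, 18.8 and 22.8 CPM of Uhrf1. Interstitial cells, the stromal lineage, held 58.9, 94.5, 57.9 and 83.3 CPM of Dnmt1 and 81.7, 80.8, 54.6 and 58.2 CPM of Uhrf1. Interstitial cells were higher in 4 of 4 libraries for both, by 1.09 to 1.25 on the log2 scale for Dnmt1 and by 1.35 to 1.94 for Uhrf1. The G2 and mitosis genes moved with the classes, at 160 to 392 CPM in supporting cells and 1357 to 2473 CPM in interstitial cells, and so did the S phase genes, at 477 to 681 and 947 to 1447 CPM. Their part in the class difference was not tested.

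**Figure D3:**
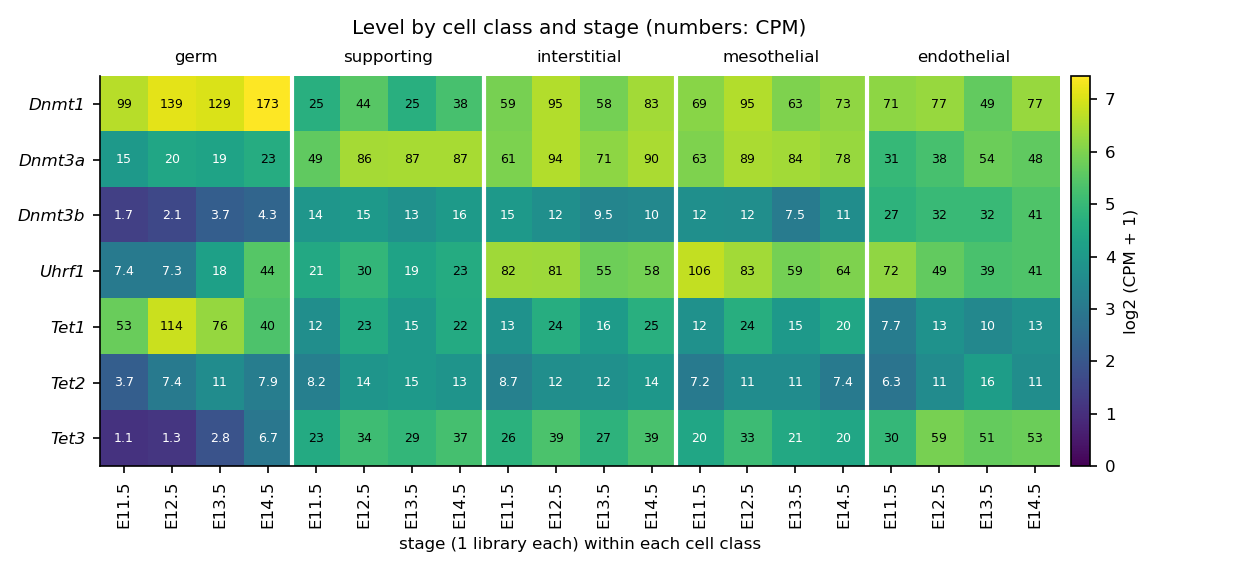
Level of the 7 genes (rows) in germ cells and 4 somatic classes at each stage (columns), as log2(CPM + 1) by colour and as CPM in the cells of the map. Uhrf1 is lower in supporting than in interstitial cells in all 4 libraries, and Dnmt3b and Tet3 are higher in endothelial cells than in the 3 other somatic classes in all 4.

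Mesothelial cells, the surface layer of the gonad, had Dnmt1 at 62.7 to 94.7 CPM and Uhrf1 at 58.5 to 106 CPM over the 4 libraries. Endothelial cells had Dnmt1 at 49.5 to 77.5 CPM and Uhrf1 at 38.9 to 72.4 CPM. In order, Dnmt1 was highest in germ cells in every library and, among these somatic classes, lowest in supporting cells, and the intervals of the interstitial and mesothelial levels overlapped in 4 of 4 libraries. Uhrf1 in germ cells was below supporting cells at E11.5, E12.5 and, with overlapping intervals, E13.5 (17.7 and 18.8 CPM), and above them at E14.5 (43.9 and 22.8 CPM).

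Dnmt3a covered similar ranges in supporting (48.8 to 87.2 CPM), interstitial (61.3 to 94.2 CPM) and mesothelial cells (63.1 to 89.2 CPM), and was lower in endothelial cells (30.9 to 53.6 CPM). The interstitial to supporting difference in Dnmt3a changed sign between libraries, from 0.33 at E11.5 to -0.29 at E13.5. Of the 4 classes, Dnmt3b was highest in endothelial cells, at 27.1, 32.2, 31.8 and 40.6 CPM, where the other 3 classes held 7.50 to 15.6 CPM. Immune cells had 71.8 CPM of Dnmt3b at E11.5, from 69 UMIs in 39 cells, and 18.7 and 14.7 CPM from 6 UMIs each at E13.5 and E14.5.

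Tet1 was even across supporting (11.7 to 22.6 CPM), interstitial (12.8 to 24.8 CPM) and mesothelial cells (12.47 to 24.5 CPM), with overlapping intervals between supporting and interstitial cells in 4 of 4 libraries. Endothelial Tet1 was at 7.73 to 12.7 CPM. Tet2 lay between 6.33 and 16.5 CPM in the 4 somatic classes. Supporting cells were above mesothelial cells in 4 of 4 libraries, with overlapping intervals in each. Of the 4 classes, Tet3 was highest in endothelial cells, at 30.2, 58.9, 50.7 and 53.3 CPM, against 20.2 to 39.5 CPM in the other 3. At E11.5 its endothelial interval (24.2 to 37.3) overlapped that of interstitial cells (23.4 to 28.8). Immune cells had 59.1 CPM of Tet3 at E13.5, from 19 UMIs in 25 cells, and 21.9 and 39.2 CPM at E11.5 and E14.5.

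At E14.5 germ cells differed widely in meiotic genes, and Tet1 and Uhrf1 followed them in opposite directions. The cells of a library were ranked by their UMIs of an 18-gene meiosis panel (Stra8, Sycp3, Rec8 and others, none a member) after each was thinned to 5000 UMIs, and divided into terciles, which are ranges of a score and not cell types. Germ cells as a whole held 158, 341, 777 and 3912 CPM of the panel in stage order. At E14.5 the terciles held 1568, 3823 and 7424 CPM of it, and 381 of 2371 cells (16.1%) lay within 1 UMI of a limit.

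**Figure D4:**
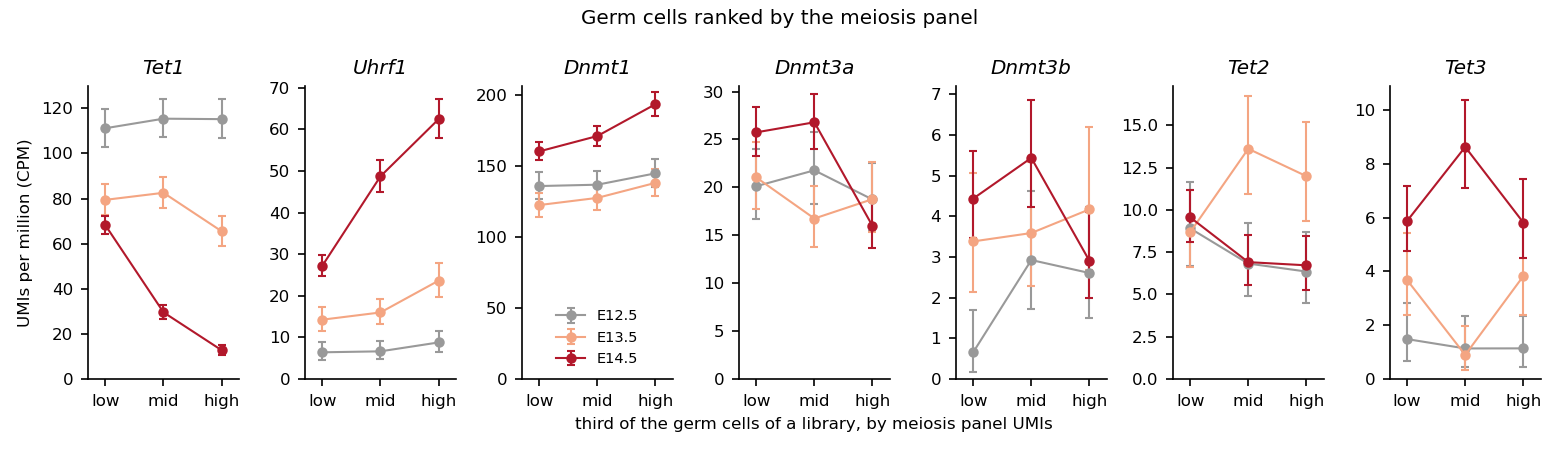
Level in CPM (y axes, each starting at 0) of 7 genes in the lowest, middle and highest tercile of germ cells by meiosis panel UMIs (x axis) at E12.5, E13.5 and E14.5 (colours), with exact Poisson 95% intervals. At E14.5 Tet1 drops from 68.2 to 12.8 CPM while Uhrf1 climbs from 27.2 to 62.4 CPM.

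Tet1 was at 68.2 CPM (64.2 to 72.3) in the lowest tercile at E14.5, at 29.6 (26.7 to 32.7) in the middle and at 12.8 (10.8 to 15.1) in the highest. The highest against the lowest gave -2.41 (-2.68 to -2.16), a 5.32-fold lower level. All germ cells of E13.5 held 76.4 CPM, and the highest tercile of E14.5 lay below the somatic level of 18.2 CPM in the same library. Uhrf1 was at 27.2, 48.7 and 62.4 CPM in the same terciles, a difference of 1.20 (1.02 to 1.37). These 2 members, 1 higher and 1 lower, were the ones called among 7, beside 28.4% of 11317 genes (13.2% higher, 15.2% lower). Leaving out cells with a Y-linked UMI, which made up 21.6%, 18.0% and 14.6% of the terciles, gave -2.44 for Tet1 and 1.13 for Uhrf1. Between the upper and lower 50% of the ranked cells, Tet1 differed by -1.84 and Uhrf1 by 0.87, which is short of 2-fold.

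Dnmt1 moved by 0.27 (0.19 to 0.36) over the same terciles, from 160 to 193 CPM. Dnmt3a moved by -0.69 (-0.95 to -0.43) and Tet2 by -0.51 (-0.93 to -0.10), both below 2-fold. For Dnmt3b (-0.61, -1.26 to 0.01) and Tet3 (-0.01, -0.50 to 0.46) the interval included 0. Other values moved with the terciles as well. The pluripotency gene Pou5f1 went from 260 to 166 and 65.6 CPM, the G2 and mitosis genes from 2266 to 1705 and 1332 CPM, the somatic markers from 108 to 92.6 and 45.4 CPM, and the median depth from 18850 to 15387.5 and 13378.5 UMIs. The S phase genes were at 1243, 1289 and 1346 CPM. The part of these in the Tet1 and Uhrf1 differences was not tested.

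At E13.5 the same division gave 0.73 (0.34 to 1.12) for Uhrf1 and -0.28 (-0.47 to -0.09) for Tet1, neither of 2-fold, where 6.1% of genes were called. At E12.5 Tet1 was at 111, 115 and 115 CPM in the terciles and 0 members were called, beside 0.468% of genes. At E12.5 and E13.5, 89.0% and 65.3% of the cells lay within 1 UMI of a limit, so these terciles divide the cells less sharply than at E14.5.

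In somatic cells Dnmt1 and Uhrf1 rose with the S phase genes, and in germ cells Dnmt1 differed little over the same ranking. Cells were ranked in the same way by a 12-gene S phase list (Mcm2 to Mcm7, Pcna, Cdc6, Gins2, Slbp, Rrm2 and Ccne2). In each library 54.8% to 67.4% of germ cells and 57.9% to 74.2% of somatic cells lay within 1 UMI of a limit. Somatic Dnmt1 was higher in the highest than in the lowest tercile by 1.48, 1.18, 1.36 and 1.69 on the log2 scale in stage order. Somatic Uhrf1 was higher by 2.31, 1.71, 1.80 and 2.13. Both were called in 4 of 4 libraries, where 10.9%, 6.15%, 5.99% and 19.7% of genes were called.

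**Figure D5:**
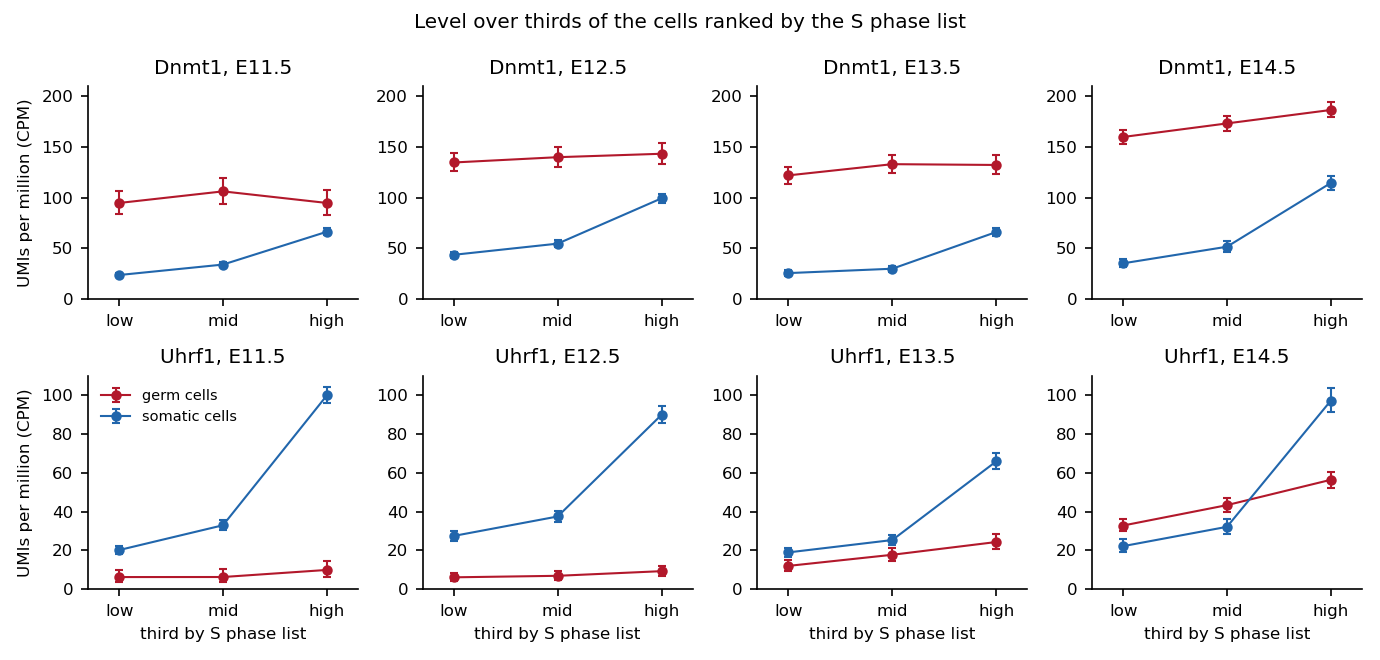
Level in CPM (y axes, starting at 0) of Dnmt1 (top) and Uhrf1 (bottom) in terciles of cells by UMIs of the S phase list (x axis), in germ (red) and somatic cells (blue) of each library, with exact Poisson 95% intervals. Somatic levels climb in every library, and germ cell Dnmt1 stays between 94.8 and 106 CPM at E11.5.

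Germ cell Dnmt1 differed between the same terciles by 0.00 (-0.26 to 0.26), 0.09 (-0.05 to 0.23), 0.12 (-0.03 to 0.26) and 0.22 (0.14 to 0.31). Germ cell Uhrf1 differed by 0.67, 0.61, 1.02 and 0.78, of which the value at E13.5 (0.62 to 1.43) was called. The S phase genes themselves spread less in germ cells, from 907 to 1730 CPM over the E14.5 terciles against 396 to 1993 CPM in somatic cells, and 0.76%, 0.837%, 1.66% and 2.26% of genes were called in stage order. The somatic difference exceeded that of germ cells by 1.32 ± 0.19 (log2, SD, n = 4 libraries) for Dnmt1 and by 1.22 ± 0.37 for Uhrf1, in 4 of 4 libraries each. The exact paired permutation test gave p = 0.125 for each of these 2 comparisons (two-sided), which is the smallest that 4 pairs allow, and 0.125 after adjustment over the 2. It was added after seeing the data, and with 4 of 4 differences of the same sign its outcome was fixed.

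The supporting and interstitial markers were lower in the highest somatic terciles, for example 1018 to 633 CPM at E11.5, so the comparison was repeated within classes. Within supporting cells the Dnmt1 difference was 1.01, 0.60, 0.62 and 0.93 and the Uhrf1 difference 1.64, 0.91, 0.89 and 2.14. Within interstitial cells they were 1.09, 1.06, 1.59 and 1.92 for Dnmt1 and 1.61, 1.47, 1.88 and 1.64 for Uhrf1. Values under 1.00 are short of 2-fold. All 8 Dnmt1 values were above the 4 germ cell values. Somatic markers also moved over the germ cell terciles, from 138 to 48.0 CPM at E14.5, and their part was not tested. At E14.5 the somatic values without cells with a Y-linked UMI were 1.73 for Dnmt1 and 2.202 for Uhrf1, and the germ values 0.21 and 0.78.

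None of the other members was called higher with the S phase genes in somatic cells. At E14.5 Tet2 was lower by a called -1.02 (-1.46 to -0.60), from 15.3 to 7.52 CPM, and without cells with a Y-linked UMI the value was -0.97, short of 2-fold. Tet1 moved by -0.82, Dnmt3a by -0.80, Dnmt3b by -0.70 and Tet3 by -0.62 there, short of 2-fold, and between -0.39 and 0.26 at the other 3 stages.

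The share of cells with a UMI depended on the depth to which the cells were thinned. With every cell thinned to 5000 UMIs and 0 cells left out for depth, a Uhrf1 UMI was found in 2.06%, 3.18%, 8.27% and 18.9% of germ cells in stage order, and in 20.2%, 17.7%, 31.9% and 46.3% before thinning. A Tet1 UMI was found in 25.1%, 41.1%, 31.9% and 14.8% of thinned germ cells, and a Dnmt1 UMI in 36.2%, 49.5%, 47.6% and 56.1%. In thinned somatic cells the shares were 13.4% to 19.9% for Uhrf1, 5.40% to 10.0% for Tet1 and 16.6% to 26.1% for Dnmt1. A Poisson spread of the same UMIs over germ cells would give 20.3% for Uhrf1 and 15.6% for Tet1 at E14.5. A Tet3 UMI was found in 1.23%, 0.159%, 1.33% and 3.04% of thinned germ cells, the first 3 from 10 cells or fewer. A Tet2 UMI was found in 3.70% (interval 1.71% to 6.91%), 4.14%, 4% and 3.58%, where the summed levels were 3.70, 7.36, 11.4 and 7.92 CPM. Thinned to 2000 UMIs the Tet2 shares were 0%, 1.43%, 2.8% and 1.27%, and before thinning 10.7%, 17.7%, 24.1% and 11.8%. At these depths the share was highest at E13.5 and lowest at E11.5, as the summed level was.

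Over the 27 sums of a class and library with at least 20 cells, which share libraries and depth, the genes whose log2(CPM + 5) followed each member most closely among 9298 were ranked by Pearson's r. Dnmt1 was followed by Atad2 (0.94), Apitd1 (0.93) and Anln (0.92), Uhrf1 by Glipr2 (0.81), 2810417H13Rik (0.78) and Dnajc9 (0.78). Dnmt3a was followed by Bcl9 (0.94), Trps1 (0.92) and Klhl9 (0.91), and Dnmt3b by Mgat1 (0.93), Nfkbia (0.92) and Tirap (0.92). Tet1 was followed by Fgd1 (0.93) and Jarid2 (0.91) among others, Tet2 by Wdfy3 (0.89), Prkacb (0.88) and Supt20 (0.87), and Tet3 by Foxp1, Mbnl2 and Igf1 (0.93 each). Uhrf1 had the lowest leading value of the 7.

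The counts of the 7 gene lists that follow stand beside 24% of all genes higher and 41.7% lower in germ cells (limma), and 31% higher and 8.03% lower from E11.5 to E14.5 (ratio rule). Among the partners of the maintenance pair, 6 of 10 were higher and 2 lower in germ cells (limma adjusted p below 0.05), with a list median of 0.57 beside -0.28 over all genes. Dppa3, which encodes a maternal protein known to affect DNA methylation, was higher by 6.79 ± 0.26 (log2 ± SE). Hells, a chromatin remodeller needed for DNA methylation, was higher by 3.15 ± 0.28. Zfp57, which guards imprinted methylation, differed by -3.30 ± 0.19. From E11.5 to E14.5, 2 of 10 rose in germ cells and 0 fell, beside 31% and 8.03% of all genes. Hells rose from 384 to 1388 CPM and Cdca7l, a relative of the HELLS partner CDCA7, from 13.8 to 30.4 CPM.

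Of 9 partners of de novo methylation, 6 were higher and 2 lower in germ cells (median 0.93), and 4 rose and 1 fell with stage (median 0.97), beside 31% and 8.03% of all genes. Kdm1b, a histone demethylase required for imprints in oocytes, went from 3.44 to 17.9 CPM, and Nsd1, a histone H3 lysine 36 methyltransferase, from 16.6 to 82.6 CPM. Morc1, a germline repressor of transposons, was higher in germ cells by 4.29 ± 0.38 and went from 41.4 to 7.67 CPM. Dnmt3c, on this list, was not analysed here.

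Of 8 cofactors and partners of the TET enzymes, 3 were higher and 3 lower in germ cells (median 0.06), near the 24% and 41.7% over all genes, and 0 rose and 2 fell with stage, beside 31% and 8.03%. Nanog and Prdm14, pluripotency factors that bind or recruit TET proteins, were higher by 4.06 ± 0.43 and 3.11 ± 0.30. They went from 45.8 to 7.25 CPM and from 11.7 to 3.64 CPM. Idh1, an enzyme that makes the TET cosubstrate oxoglutarate, differed by -2.79 ± 0.21.

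Of 14 base excision and repair genes tested, 7 were higher and 3 lower (median 0.42), beside 24% and 41.7% of all genes, and 1 rose and 2 fell with stage (median -0.30), beside 31% and 8.03%. Ung, a uracil glycosylase, was higher by 1.69 ± 0.19 and went from 284 to 110 CPM. Tdg, the glycosylase that removes oxidised 5-methylcytosine, differed by -1.17 ± 0.16 and was at 34.0 and 20.8 CPM. Gadd45g differed by -3.82 ± 0.26 and went from 19.4 to 6.84 CPM. Neil3 was the gene that rose, from 3.06 to 16.1 CPM.

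Of 7 methyl-CpG readers or their relatives, 0 were higher and 2 lower in germ cells, beside 24% and 41.7% of all genes. The lower ones were Zbtb4 at -1.996 ± 0.22 and Mbd1 at -0.99 ± 0.14, and the list median was -0.07. With stage, beside 31% and 8.03% of all genes, 2 rose (Zbtb4 by 3.30, 1.41 to 6.36, from 0.255 to 2.51 CPM and Zbtb33 from 3.32 to 9.45 CPM) and 1 fell (Mbd3 from 305 to 149 CPM). Of 9 methyl donor genes, 1 was higher, Shmt1 by 1.44 ± 0.20, and 4 were lower (median -0.19). With stage 0 rose, and Shmt1 fell from 66.0 to 31.0 CPM.

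Of 12 germline genes known for promoter methylation in somatic cells, 11 were higher in germ cells and 0 lower (median 4.43), beside 24% and 41.7% of all genes. From E11.5 to E14.5, 11 rose and 0 fell (median 3.61, beside 0.45 over all genes), where 31% of all genes rose. Stk31 was higher by 5.90 ± 0.23 and went from 40.5 to 501 CPM. Tdrd1, a Tudor protein of the piRNA pathway, had the smallest called difference, 1.45 ± 0.43, and Tex19.1 the smallest called rise, from 85.6 to 175 CPM. Rpl10l, at 14.54 and 10.3 CPM, was the gene not called with stage. Sycp1, Sycp3 and Hormad1 also belong to the meiosis panel. Taf7l, a testis-linked transcription factor subunit, differed by 0.27 ± 1.21 (limma adjusted p = 0.857) between the classes and went from 0.765 to 160 CPM in germ cells.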

How the data were processed

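Gonad cells of 4 libraries, 1 per stage, were analysed. The submitters' processing notes name Cell Ranger 2.2.0 and mm10; other steps are not given in the sources used here. The deposited values are natural log values, ln(1 + UMIs / cell total × 10000), as read from the values made by the authors. Of 69792436 values, 100.0% came back as whole UMIs (relative tolerance 1e-06), and these were used, as log values call for no count test. The prefixes gave 4916, 4842, 4842 and 4787 cells, with 0 columns unused and totals of 69458291 to 80377418 UMIs.

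Cells above 20% mitochondrial UMIs (3, 1, 1 and 0), under 200 genes (0) or called by Scrublet in scanpy 1.11.5 (135, 193, 118 and 111) were left out. Cells with 2 germ cell markers (510) were set aside, and 254 cells with at least 10% haemoglobin UMIs were erythroid, 30 of them with 3 or more germ cell markers. Of the 243, 628, 750 and 2371 germ cells, 78, 57, 36 and 52 had exactly 3 markers and so lay near a limit. Near a limit also lay 385 to 627 somatic cells per library, assigned by a lead of 1 marker.

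Class sums are CPM with exact Poisson 95% intervals, ratios have exact binomial and shares Clopper-Pearson intervals, all for counting error only. Germ and somatic sums were compared with limma 3.58.1 (R 4.3.3), trend on log2(CPM + 1), library block, mean of at least 2 CPM, 3 residual degrees of freedom; replicates from separate embryos are not stated, so its p-values measure the spread between these libraries. The fits and ratio calls across genes were tested on simulated data. In the simulated sums for limma the germ to somatic ratio did not change with stage, unlike in these data, so they do not vouch for its calls. The members, lists and rules were chosen with earlier results of these data known. Named are all members; of each list, the called genes with the largest and smallest germ to somatic and E14.5 to E11.5 ratios, and any gene of a list with 3 or fewer called; and the 3 genes most correlated with each member among those with at least 20 CPM in a sum. Some genes that these rules would name are not reported here.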

Additional observations from a re-analysis of the deposited data

Results flagged for a closer look

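For 7 changes the germ and somatic cells of the same libraries went in opposite directions, with a counting interval that left out 0 in both classes; each class has 1 library per stage, so the difference was not tested. The values are germ minus somatic log2 changes with counting intervals. From E12.5 to E13.5 they were 1.76 (1.46 to 2.06) for Uhrf1, 1.47 (0.76 to 2.19) for Tet3 and 1.14 (0.55 to 1.73) for Dnmt3b, higher in germ and lower in somatic cells. From E13.5 to E14.5 they were -1.18 (-1.38 to -0.99) for Tet1, lower in germ cells, and 0.49 (0.29 to 0.68) for Dnmt3a, higher in germ cells. From E11.5 to E14.5 they were 1.68 (0.84 to 2.51) for Dnmt3b, higher in germ cells, and -1.05 (-1.27 to -0.82) for Tet1, lower in germ cells. The germ change of Dnmt3a from E13.5 to E14.5 was 0.31, beside a median of 0.20 over all genes. With median-of-ratios scaling this Dnmt3a change was 0.13.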

How the results depend on the processing

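The count of 4 members called in germ cells between E11.5 and E14.5 became 1 with cells of at least 2 germ cell markers admitted, 2 with a ratio of at least 4 and 1 with at least 20 CPM in the higher library; the last 2 settings narrow the rule itself, and for the first the cause was not tested. The count of 0 in somatic cells became 2 with a ratio of at least 1.5. The 7 members that separated germ from somatic cells were 6 to 7 when each library was left out in turn. Of the single-gene values of the limma test between germ and somatic cells, 5 lost their call under other settings, all of Tet2, and 0 changed direction once called. Stage changes of Tet3, Dnmt3b and Tet2 that fell short of 2-fold under other settings are given beside the results. The alternatives within supporting and interstitial cells, and the terciles without cells with a Y-linked UMI, were chosen after seeing the data. So was the exact paired permutation test of the S phase terciles. Over all genes, the 3839 higher and 994 lower in germ cells became 1717 and 239 with a ratio of at least 4, and 1289 and 462 with at least 20 CPM; the lower count became 1793 with a ratio of at least 1.5 and 1764 with median-of-ratios scaling. In somatic cells 1139 higher and 745 lower became 2309 and 1483 at 1.5, 350 and 233 at 4, and 236 and 164 with at least 20 CPM. Dnmt3b and Tet3 at E11.5 rest on 13 and 9 UMIs, which limits their changes. Without the library block that pairs the classes, 6 members were called.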
